A study of Mus musculus with 4 samples.

Results

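Ribosome biogenesis factors are the proteins that transcribe, modify, cut and assemble ribosomal RNA in the nucleolus. The 40 factors described here were taken by gene symbol from a list of classic targets of the transcription factor MYC, and all 40 were among the 14382 genes of the deposited table. They were listed because the Myc transcript was higher after deletion of Arid1a, and no value of the 40 genes themselves entered the rule.

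RNA-seq was made from mouse embryonic stem cells (ESCs) with floxed Arid1a alleles and CreERT2, a Cre recombinase that 4-hydroxytamoxifen (4-OHT) activates. All 4 libraries came from this Arid1a f/f:CreERT2 genotype: 2 from cells given ethanol and 2 from cells given 1 µM 4-OHT, for 24 hours in both cases, and RNA was taken 72 hours after the treatment. The cells grew in serum and leukemia inhibitory factor on irradiated embryonic fibroblast feeders, and RNA of these feeders may be present in all libraries. No group with 4-OHT but without floxed alleles was analysed here, and an effect of 4-OHT or of active Cre cannot be told apart from one of Arid1a deletion. The labels do not say that the 2 libraries of a group came from separate cultures, so the p-values measure only the spread between these libraries, which may be technical.

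Ribosomal RNA is made by RNA polymerase I as one long precursor. Small nucleolar RNAs, held in box C/D and box H/ACA particles, guide its methylation and its conversion of uridine to pseudouridine. The small subunit processome then cuts and folds the part that becomes the 40S subunit, while another set of factors builds the 60S subunit. MYC binds DNA with its partner MAX at E-box sequences, of which CACGTG is the canonical form, and genes of ribosome biogenesis are among its best known targets. ARID1A belongs to the BAF complexes, which remodel chromatin.

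The E-box letters were looked for near the start sites of the members in RefSeq promoter sequences (GRCm38.p6, the build of mm10), which held 35 of the 40 members. CACGTG reads the same on both strands. In the 250 bases before the start it occurred in 2 of 35 members (5.71%), Nop2 and Rrn3, against 1126 of 11357 genes of the table with a promoter entry (9.91%) and 6.02% of all 32851 entries. In the whole entry of 300 bases, which adds 50 bases after the start, it occurred in 8 of 35 members (22.9%), against 11.7% of genes of the table and 7.15% of all entries. With CACGCG, a noncanonical E-box, counted as well on either strand, the shares were 8 of 35 members (22.9%) against 24.3% of genes of the table before the start, and 18 of 35 (51.4%) against 28.7% in the whole entry. The sites are shown because they are the canonical MYC recognition letters within the entries of the members. CACGTG is in capitals, up to 12 bases are given on each side within the entry, and each line reads 5′ to 3′ on the strand of the gene.
Nop2, 60 bases before the start (chr6:125131811-125131840, plus strand): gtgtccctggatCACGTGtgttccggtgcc
Rrn3, 215 bases before the start (chr16:13780472-13780501, plus strand): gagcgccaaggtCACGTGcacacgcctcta
Rrn3, 48 bases before the start (chr16:13780639-13780668, plus strand): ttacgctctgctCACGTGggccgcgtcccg
Pes1, after the start (chr11:3963965-3963994, plus strand): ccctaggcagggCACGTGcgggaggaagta
Wdr43, after the start (chr17:71616220-71616249, plus strand): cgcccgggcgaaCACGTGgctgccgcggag
Tsr1, after the start (chr11:74898092-74898121, plus strand): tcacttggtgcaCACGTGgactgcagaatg
Ltv1, after the start (chr10:13193092-13193121, minus strand): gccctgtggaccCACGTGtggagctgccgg
Utp20, after the start (chr10:88826765-88826789, minus strand): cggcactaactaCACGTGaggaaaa
Mybbp1a, after the start (chr11:72441355-72441376, plus strand): gtcttctgagccCACGTGtttg
A match is only an occurrence of these letters, and binding of MYC was not measured here.

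Arid1a, the targeted gene, was at 517 and 502 CPM (read counts scaled to the effective size of each library) in the ethanol libraries and at 241 and 213 CPM in the 4-OHT libraries. It fell by 1.16 on the log2(CPM + 1) scale (SE 0.066, adjusted p = 7.10e-06, limma). Myc was at 54.2 and 56.3 CPM in ethanol and at 112 and 108 CPM with 4-OHT, a difference of 0.98 log2 (SE 0.069) with a 95% interval from 77.1% to 119% above ethanol. The choice of the members used this difference of Myc, which is given as a description. Mycn, a close relative of Myc with the same DNA partner, was at 379 and 352 CPM in ethanol and at 371 and 378 CPM with 4-OHT (log2 difference 0.04, adjusted p = 0.770, limma). Per kilobase of coding sequence, Mycn stood at 264 CPM and Myc at 40.6 CPM in ethanol, and at 270.1 CPM and 80.6 CPM with 4-OHT. Here and below, such values divide by coding length only, though reads of noncoding exon parts may be counted as well.

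Beside this difference of Myc, none of the 40 ribosome biogenesis factors rose and none fell at an adjusted p under 0.05 in limma, fitted over 14381 genes. Of all genes tested, 753 rose (5.24%) and 606 fell (4.21%). Among the 4647 genes whose ethanol means lay within the range of the members' means, 229 rose and 312 fell, together 11.6%. At an unadjusted p under 0.05 in limma, 6 members were higher with 4-OHT, where 12.5% of all genes were, and 0 were lower, where 11.4% were. The test of recovered reads in edgeR called 2 members higher, Polr1a and Polr1b, where 8.11% of 12966 genes rose, and 0 lower, where 7.62% fell. DESeq2 called 0 members in either direction, where it called 4.93% of 14084 genes.

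The differences were small and lay mostly on one side. The mean CPM was higher with 4-OHT for 34 of the 40 members (85%) and lower for 6, Nob1, Nop58, Gnl3, Ubtf, Fbl and Ltv1, whereas 49.5% of all genes, and 44.8% of genes in the same range of levels, were higher. The median log2 difference of the members was 0.05 (quartiles 0.02 and 0.09), and that of all genes was -0.0016 (quartiles -0.13 and 0.15). In mean CPM the differences ran from -6.56% for Nob1 to 14.8% for Polr1a, with a median of 3.93%. The lowest end of any member's 95% interval was -0.23 log2 (Nob1) and the highest was 0.34 log2 (Rrp9), a 1.26-fold difference. The intervals of all 40 members ended below the lower bound of the Myc interval, 1.77-fold. The difference of Myc had prompted the choice of the members, so it serves here only as a scale and not as a test. The sum of the members' CPM was 14787 and 14863 in the ethanol libraries and 15771 and 14989 in the 4-OHT libraries, so that the 4-OHT libraries differed from each other by more than library B of 4-OHT differed from ethanol. Without library A of 4-OHT the median log2 difference of the members was 0.02, with 25 above 0, and without library B it was 0.07, with 31 above 0. CPM is a share of each library, and a change common to all RNA of the cells cannot be seen in it.

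**Figure D1:**
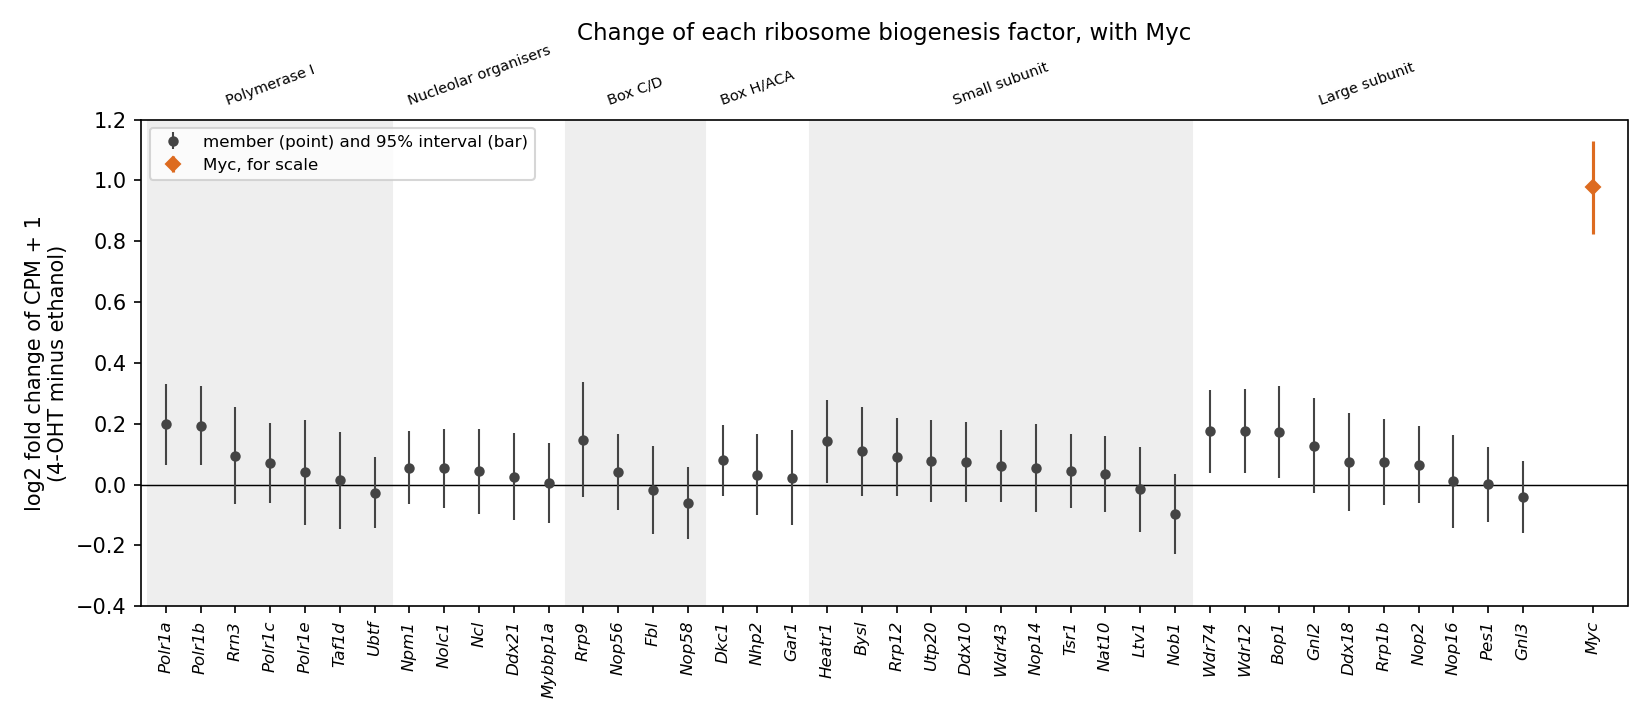
Log2 difference of CPM + 1 between 4-OHT and ethanol for each of the 40 members, grouped by role, with 95% intervals from limma, and for Myc. The members lie between -0.10 and 0.20, and no interval of a member reaches the interval of Myc, which is drawn only for scale.

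Both 4-OHT libraries were above both ethanol libraries for 16 members (40%), against 26.4% of all genes and 23.6% of genes in the members' range of levels. Both were below both ethanol libraries for 3 members, Gnl3, Nop58 and Nob1 (7.5%), against 25.7% of all genes and 30.1% of genes in that range.

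RNA polymerase I and its initiation factors held the members nearest to the threshold. Polr1a encodes the largest subunit of polymerase I (chromosome 6, 71909053-71984935, plus strand, Gencode annotation of mm10, like all gene positions given here). It was at 368 and 357 CPM in ethanol and at 436 and 396 CPM with 4-OHT. The groups did not overlap, and the log2 difference was 0.20 (SE 0.060, adjusted p = 0.0716 in limma, 0.0133 in edgeR and 0.0913 in DESeq2). Polr1b encodes the second largest subunit, which forms the catalytic centre with the first (chromosome 2, 129100995-129126594, plus strand). It was at 181 and 185 CPM in ethanol and at 215 and 204 CPM with 4-OHT, a log2 difference of 0.19 (SE 0.058, adjusted p = 0.0660 in limma, 0.0264 in edgeR and 0.227 in DESeq2). Both genes were thus higher in each 4-OHT library than in either ethanol library, as were 26.4% of all genes. Whether Polr1a and Polr1b passed depended on the test. With only genes of a mean of at least 1 CPM tested, limma gave adjusted p-values of 0.0141 for Polr1a and 0.0304 for Polr1b. In edgeR, both missed the threshold without library A of ethanol (adjusted p = 0.103 and 0.254), without library B of ethanol (0.236 and 0.145) and without library A of 4-OHT (0.216 and 0.178), and both passed without library B of 4-OHT (0.000695 and 0.0127).

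The other members of the polymerase I group lay closer to no difference. Polr1c, a subunit shared by polymerases I and III, was at 173 and 162 CPM in ethanol and at 176 and 175 CPM with 4-OHT. Polr1e, a subunit of the polymerase I initiation and elongation module, was the lowest member of all, at 53.5 and 55.7 CPM in ethanol and at 57.1 and 55.2 CPM with 4-OHT. Rrn3, the factor TIF-IA that makes polymerase I competent to initiate, was at 305 and 321 CPM in ethanol and at 359.8 and 311 CPM with 4-OHT, so that the groups overlapped although its log2 difference was 0.09. Ubtf, the HMG-box factor UBF of active ribosomal DNA, was at 401 and 405 CPM in ethanol and at 402 and 390 CPM with 4-OHT (log2 difference -0.03). Taf1d, a subunit of the selectivity factor SL1, had means of 92.5 ± 3.50 CPM (SD, n = 2) in ethanol and 93.5 ± 5.58 CPM with 4-OHT. Per kilobase of coding sequence in ethanol, Polr1c stood at 161 CPM, Polr1a at 70.4 CPM, Polr1b at 53.8 CPM and Polr1e at 41.9 CPM.

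The 5 abundant nucleolar organisers had mean CPM 0.455% (Mybbp1a) to 3.92% (Npm1) above their ethanol means, and none passed the test. Ncl, nucleolin, a histone and RNA chaperone of the nucleolus, was the highest member, at 3086 and 3121 CPM in ethanol and at 3359 and 3044 CPM with 4-OHT. One 4-OHT library was above and the other below both ethanol libraries. Npm1, nucleophosmin, which scaffolds the outer layer of the nucleolus, was at 1396 and 1427 CPM in ethanol and at 1435 and 1498 CPM with 4-OHT (log2 difference 0.06, adjusted p = 0.593, limma), with no overlap between the groups. The ethanol and 4-OHT means were 1092 ± 4.76 and 1097 ± 72.4 CPM for Mybbp1a, a MYB-binding nucleolar protein, 691 ± 29.0 and 705 ± 55.0 CPM for the helicase Ddx21, and 513 ± 8.17 and 533 ± 33.0 CPM for the snoRNP chaperone Nolc1 (SD, n = 2). Of these 5 genes, only Npm1 had groups that did not overlap. Of all genes, 26.4% had both 4-OHT libraries above both ethanol libraries and 25.7% had both below.

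The box C/D particle, which carries out 2′-O-methylation, held members on both sides of 0. Fbl, fibrillarin, the methyltransferase of the particle, was at 155 and 141 CPM in ethanol and at 146 and 147 CPM with 4-OHT. Nop58, a core protein of the particle, was at 527 and 537 CPM in ethanol and at 522 and 498 CPM with 4-OHT, lower in both (log2 difference -0.06, adjusted p = 0.541, limma). Its partner Nop56 was at 305 and 309 CPM in ethanol and at 327 and 305 CPM with 4-OHT. Rrp9, the U3 snoRNA protein, was at 176 and 149 CPM in ethanol and at 169 and 191 CPM with 4-OHT. It had the widest interval of the 40 members, -0.04 to 0.34 log2, and its libraries differed within both groups. The box H/ACA particle, which makes pseudouridine, had 3 members, and all lay slightly above 0. Dkc1, dyskerin, its pseudouridine synthase, was at 307 and 304 CPM in ethanol and at 324 and 321 CPM with 4-OHT (log2 difference 0.08, adjusted p = 0.402, limma). The means of the core proteins Nhp2 and Gar1 were 277 ± 10.9 and 85.6 ± 3.14 CPM in ethanol and 283 ± 13.4 and 87.0 ± 3.85 CPM with 4-OHT (SD, n = 2).

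**Figure D2:**
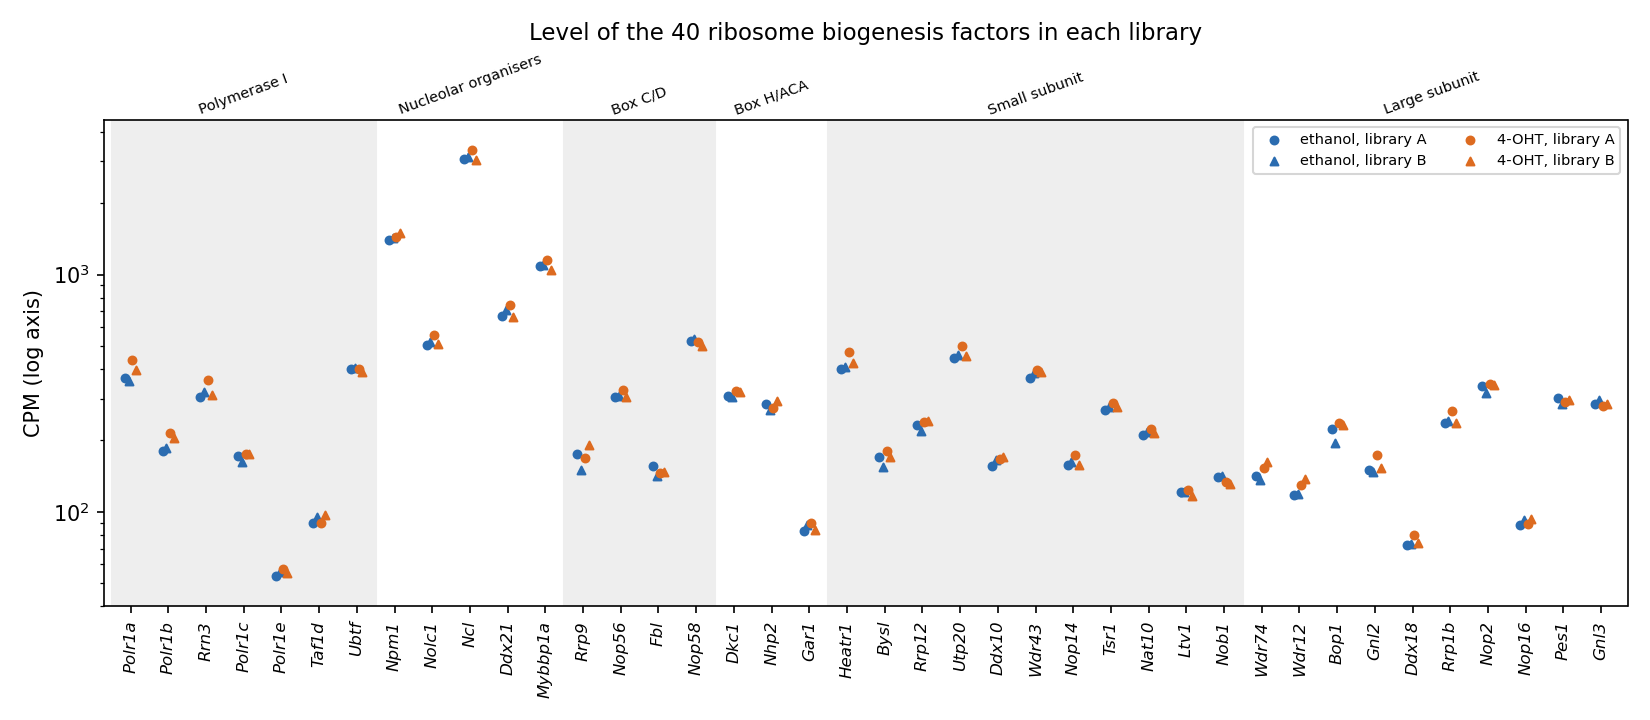
CPM of the 40 members in each of the 4 libraries on a log axis, with members grouped by role and ethanol and 4-OHT libraries in different colours. The points of one gene lie close together, while genes run from 53.5 CPM (Polr1e) to 3359 CPM (Ncl).

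Of the 11 factors of the small subunit processome and of 40S maturation, 9 were above 0, with a median log2 difference of 0.06. Heatr1, the UTP10 protein of the complex that binds the start of the precursor RNA, had the largest difference in this role, at 401 and 409.5 CPM in ethanol and at 472 and 424 CPM with 4-OHT (log2 difference 0.14, 95% interval 0.0050 to 0.28, adjusted p = 0.194, limma). Utp20, a very large processome protein, was at 446 and 459 CPM in ethanol and at 502 and 454 CPM with 4-OHT, with overlap. Rrp12, an export factor, was at 233 and 219 CPM in ethanol and at 239 and 242 CPM with 4-OHT, and Wdr43, a member of the same early complex as Heatr1, was at 368 and 384 CPM and then at 395 and 390 CPM. Ddx10, a helicase, had means of 160.3 ± 6.45 and 169 ± 2.71 CPM in ethanol and with 4-OHT (SD, n = 2). These last 3 genes had groups that did not overlap, with log2 differences between 0.06 and 0.09. In this role, both 4-OHT libraries were above both ethanol libraries for 5 of 11 members, against 26.4% of all genes. Both were below for 1, against 25.7% of all genes.

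Nob1, the endonuclease that makes the mature end of 18S ribosomal RNA, was the lowest of all 40 in log2 difference, at 140.3 and 142 CPM in ethanol and at 133 and 131 CPM with 4-OHT (-0.10 log2, 95% interval -0.23 to 0.03, adjusted p = 0.357, limma). Ltv1, a late 40S assembly factor, was at 121 CPM in both ethanol libraries and at 123 and 116 CPM with 4-OHT. The acetyltransferase Nat10 had means of 214 ± 3.51 and 219.6 ± 6.22 CPM and the processome protein Nop14 had means of 159 ± 3.37 and 166 ± 11.3 CPM, in ethanol and with 4-OHT (SD, n = 2). Tsr1, a late 40S factor, had means of 273 ± 5.97 and 282 ± 8.30 CPM, but 32.3% of its exon bases overlap exons of Srr on the other strand. Bysl, bystin, was at 169.9 and 155 CPM in ethanol and at 180.1 and 170.1 CPM with 4-OHT (7.86% higher in the mean, with the nearest libraries of the groups almost level). Of its exon bases, 9.37% overlap those of Ccnd3, which rose from a mean of 164 to 202 CPM (adjusted p = 0.0229, limma). Whether reads were counted by strand is not given in the sources used here, so reads from these pairs cannot be told apart.

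The 10 factors of 60S assembly had a median log2 difference of 0.07, and 9 were above 0. Bop1, Pes1 and Wdr12 encode the PeBoW complex, which is needed to process the precursor of the large subunit RNAs, and they stand here for how members of one complex differed. Bop1 was at 223 and 195 CPM in ethanol and at 238 and 233 CPM with 4-OHT (log2 difference 0.17, adjusted p = 0.156, limma). Wdr12 was at 118 and 119 CPM in ethanol and at 130.2 and 138 CPM with 4-OHT (log2 difference 0.18, adjusted p = 0.113, limma). Pes1 was at 301 and 285 CPM in ethanol and at 291 and 295 CPM with 4-OHT (log2 difference 0.0015, 95% interval -0.12 to 0.12, adjusted p = 0.993, limma). The 95% intervals of Bop1 and Wdr12 lay above 0 and overlapped that of Pes1, and the difference between the genes was not tested.

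Wdr74, a WD-repeat factor of early 60S particles, was at 142 and 136.5 CPM in ethanol and at 153 and 162 CPM with 4-OHT (log2 difference 0.18, adjusted p = 0.108, limma). Gnl2, a GTPase of nuclear 60S particles, was at 151 and 148 CPM in ethanol and at 174 and 153 CPM with 4-OHT (log2 difference 0.13). Gnl3, nucleostemin, its relative and a protein linked to stem cell proliferation, was lower in both 4-OHT libraries, at 285.5 and 295 CPM in ethanol and at 280.3 and 284 CPM with 4-OHT (log2 difference -0.04, adjusted p = 0.701, limma). The means in ethanol and with 4-OHT were 328 ± 16.3 and 343 ± 2.33 CPM for the RNA methyltransferase Nop2, 239 ± 2.52 and 252 ± 19.6 CPM for Rrp1b, 72.9 ± 0.772 and 76.9 ± 4.01 CPM for the helicase Ddx18, and 90.3 ± 2.94 and 90.9 ± 3.36 CPM for Nop16 (SD, n = 2). Nop2 and Ddx18 had both 4-OHT libraries above both ethanol libraries, whereas Rrp1b and Nop16 overlapped. In this role 6 of 10 members had both above, against 26.4% of all genes. Gnl3 alone had both below, against 25.7% of all genes.

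The intervals of 6 members lay above 0 before adjustment: Polr1a, Polr1b, Wdr74, Wdr12, Bop1 and Heatr1. At the same cut, an unadjusted p under 0.05 in limma, 12.5% of all genes were higher than in ethanol. Of the 6 members, Bop1 had no promoter entry, and the entries of the other 5 did not hold CACGTG. Only 8 of 35 members (22.9%) held it, so 5 entries are too few to compare. CACGCG was not counted here, and a relation of the letters to the differences was not tested. The 8 members with the letters had log2 differences between -0.02 and 0.09 with a median of 0.05, and the 27 members with an entry but without the letters lay between -0.10 and 0.20, also with a median of 0.05.

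The members were well expressed in both groups, and their levels kept nearly the same order. In ethanol, 25 of 40 lay above the 90th percentile of all genes, and the lowest, Polr1e, was at the 67.7th percentile. Per kilobase of coding sequence, the highest, Npm1 at 1611 CPM, stood 43.7-fold above the lowest, Ddx18 at 36.8 CPM. Ncl followed Npm1 at 1463 CPM, Nhp2 at 603 CPM and Nop58 at 399 CPM. The 3 members from the H/ACA particle ranged from 124 CPM per kilobase (Gar1) to 603 (Nhp2). Those of the PeBoW complex ranged from 93.4 (Wdr12) over 95.2 (Bop1) to 167 (Pes1). Annotated exon and coding bases were 11955 and 1269 for Wdr12, and 3024 and 1752 for Pes1. These rankings may thus depend on the length used. Annotated exons of Ncl, Nop56, Nop58, Taf1d and Gnl3 overlap small nucleolar RNAs on the same strand, and hosting within introns was not looked for.

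The absolute log2 difference between the 2 libraries of a group had a median of 0.080 over the members with 4-OHT and 0.045 in ethanol, and that between the groups had a median of 0.061. The difference between the 4-OHT libraries went with gene length. Library A of 4-OHT was above library B for 28 of 40 members (median log2 difference 0.05), and library A of ethanol was above library B for 13 (median -0.02). Across the 40 members, the difference between the 4-OHT libraries had a Pearson correlation of 0.57 and a Spearman correlation of 0.54 with log2 coding length, and that between the ethanol libraries -0.10 and -0.083. Over 4898 genes at 50 CPM or more the Spearman correlations were 0.37 and -0.14. The difference between groups had a Pearson correlation of 0.33 and a Spearman correlation of 0.32 with log2 coding length over the members, and a Spearman correlation of 0.050 over the 4898 genes. All these points share the same 4 libraries. Polr1a, Heatr1 and Utp20, with coding lengths of 5151, 6429 and 8367 bases, were each higher in library A of 4-OHT than in B. Per the labels, either of 2 TruSeq kits was used (RNA v2, or Stranded mRNA), without naming the one behind each library, and the part of the kit or of RNA quality in these values was not tested.

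**Figure D3:**
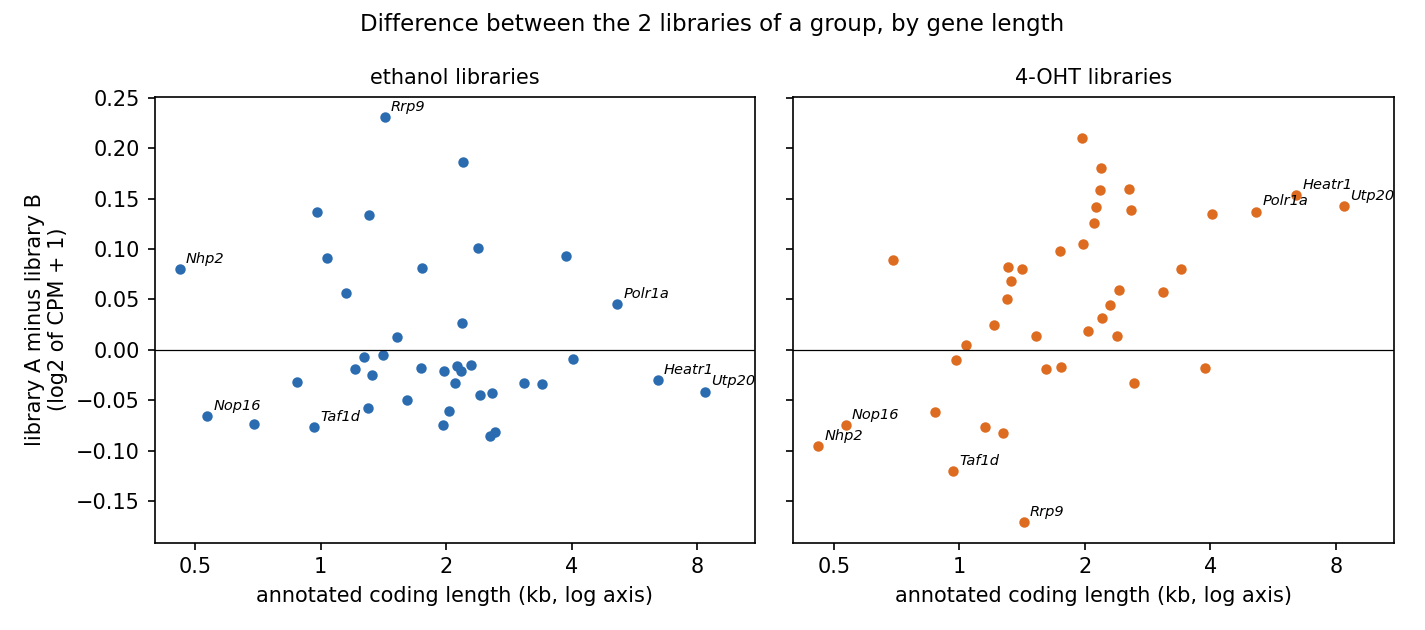
Log2 difference between library A and library B of each group for the 40 members against coding length in kilobases on a log axis. The 4-OHT points climb with length (Pearson 0.57) and the ethanol points do not (Pearson -0.10).

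Few of the other genes of the pathway, taken from lists beside the 40 members, passed the test. Of 44 other factors listed with the small subunit, 0 rose and 0 fell in limma, with a median log2 difference of 0.07. In edgeR 1 was called, Bms1, a GTPase of the processome. The 44 also held Nop10, Naf1 and Shq1, of the box H/ACA particle or its assembly, and Snu13, a box C/D protein. Of 50 other factors of 60S assembly, 2 rose and 0 fell, with a median of 0.03. They were Mdn1, the giant ATPase that strips assembly factors from 60S particles (519 to 631 CPM, adjusted p = 0.00891, limma), and Senp3, a SUMO protease of the nucleolus (273 to 321 CPM, adjusted p = 0.0297, limma). Of 11 other polymerase I factors, 0 rose and 1 fell, with a median of -0.04. It was Cavin1, which releases terminated polymerase I transcripts and also coats caveolae (109 to 82.1 CPM, adjusted p = 0.00463, limma). Of 14 genes of the RNA exosome, which trims the precursor RNA, 0 rose and 0 fell in limma, and edgeR also called 0, with a median of 0.05. The lists share genes: Nop53 was counted under both 60S assembly and polymerase I, and Ppan under both 60S assembly and the MYC targets below.

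Of 21 genes of polymerase III and its factors, which make 5S ribosomal RNA and transfer RNA, 1 rose and 0 fell, with a median of 0.00071. It was Polr3g, a subunit form known from pluripotent cells (100.1 to 125 CPM, adjusted p = 0.0130, limma). The 15 host genes of small nucleolar RNAs had 0 rises and 0 falls in limma, and edgeR called 1 lower, Snhg5. Their median was -0.07, and 3 of 15 were above 0, where 34 of 40 members were. The lists do not divide hosts from other genes, since the members Ncl, Nop56, Nop58, Taf1d and Gnl3 overlap small nucleolar RNAs too. Both 4-OHT libraries were below both ethanol libraries for 5 of the 15, against 25.7% of all genes. The summed CPM, mostly of Rack1, was 2960 and 2814 in ethanol libraries A and B and 2696 and 2981 in 4-OHT libraries A and B. Snhg5 was at 56.1 and 73.6 CPM in 4-OHT libraries A and B. The part of this difference between the 4-OHT libraries in the contrast with the members was not tested.

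Classic MYC targets, listed as outside the nucleolus but with the nucleolar factor Ppan among them, gave 4 rises and 1 fall among 32. Their median was 0.0014, and 16 were above 0. The rises were Ccnd2, cyclin D2 (41.8 to 68.8 CPM, adjusted p = 0.000436), Mthfd2 (84.7 to 131 CPM, adjusted p = 0.000296) and Shmt2 (144 to 207 CPM, adjusted p = 0.000460), enzymes of mitochondrial one-carbon metabolism, and Ldha, lactate dehydrogenase A (608 to 933 CPM, adjusted p = 0.000142), all from limma. Hk2, hexokinase 2, fell from 257 to 223 CPM in limma (adjusted p = 0.0489), a call that was lost in DESeq2 (adjusted p = 0.141). The 4 rises had log2 differences of 0.52 to 0.71. They were picked by a threshold that no member passed, so their sizes do not compare the lists. As a whole, this list had a lower median than the members (0.05, with 34 of 40 above 0). CACGTG occurred in the 250 bases before the start of 11 of 30 genes of this list (36.7%), against 9.91% of genes of the table. Of the 4 that rose, 3 had a promoter entry, and 1 of these, Ldha, held the letters.

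Of 11 genes of the MYC family and its partners other than Myc, 2 rose and 0 fell in limma. They were Mlxip, a relative that pairs with MLX (61.7 to 83.5 CPM, adjusted p = 0.00884, limma), and Mycl (42.7 to 53.7 CPM, adjusted p = 0.0392 in limma and 0.271 in DESeq2, where it did not pass). EdgeR also called Mxi1 (15.4 to 20.2 CPM, adjusted p = 0.0486 in edgeR and 0.0955 in limma) higher. It called Mga higher as well (251 to 288 CPM, adjusted p = 0.0202 in edgeR and 0.0683 in limma). The median of the 11 genes was 0.17, and 10 were above 0.

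**Figure D4:**
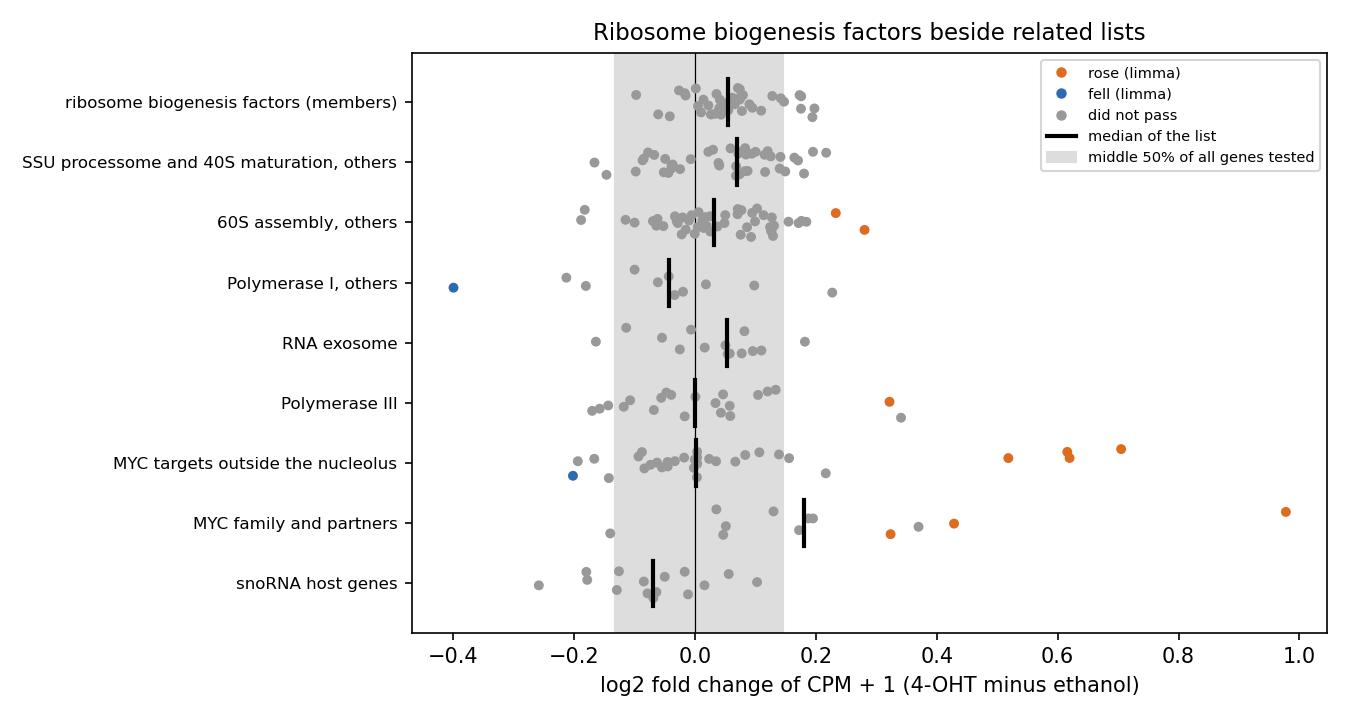
Log2 difference of CPM + 1 between 4-OHT and ethanol for every measured gene of the members and of 8 related lists, coloured by the limma call, with the median of each list as a bar and the middle 50% of all genes as a grey band. The members' median is 0.05 and no member is coloured. Myc and the 4 MYC targets outside the nucleolus called as rises stand to the right, and the median of that list is 0.0014.

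Markers of ESCs and of other cell types moved between the groups as well. All 12 ESC markers were measured, 3 rose (Fgf4, Nanog and Tdgf1) and 2 fell (Esrrb and Sox2, the latter with an adjusted p of 0.0595 in DESeq2), and their summed level was 5255 to 5352 CPM in ethanol and 5547 to 5631 CPM with 4-OHT. Of 20 fibroblast feeder markers 15 were measured, 2 rose (Col1a2, and Thy1 with an adjusted p of 0.470 in DESeq2) and 2 fell (Fn1 and Tagln). The sum was 1976 to 1990 CPM in ethanol and 1459 to 1545 CPM with 4-OHT. Fn1 (634 to 283 CPM in the mean) and Tagln (637 to 475 CPM) were the 2 highest of the 15 in ethanol and carried this lower sum. The median log2 difference of the 15 was 0.03, and 8 were above 0. Postn, Dcn, Lum, Prrx1 and Fap were not among the genes of the table. Of 8 neural progenitor markers 7 rose and 1, Nes, fell, and the sum was 334 to 341 CPM in ethanol and 354 to 378 CPM with 4-OHT. Among the 7, Gsx1 (2 and 1), Neurog1 (1 and 4), Pax3 (3 and 2) and Zic1 (5 and 8) rested on few reads in ethanol libraries A and B. Their means with 4-OHT were 11.5, 3.78, 3.54 and 5.74 CPM. Sox1 went from 89.4 to 154 CPM, Neurod1 from 18.6 to 26.9 CPM and Pax6 from 8.16 to 12.8 CPM. Of 8 endoderm markers 6 were measured, 0 rose and 0 fell in limma, with sums of 30.4 to 31.5 CPM and 33.3 to 34.2 CPM, and edgeR called Sox7 higher. In bulk RNA, a change in the number of cells of a type and a change of expression within cells, the ESCs included, cannot be told apart. The part of other cells in the members' values was not tested.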

How the data were processed

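The submitters' processing notes name the mm10 build and the tools HISAT2, Trimmomatic, FastQC and edgeR. How reads were assigned to genes, and whether by strand, is not given in the sources used here. Per the file headers, the authors deposited each group's mean CPM, an adjusted p-value and a log2 fold change. The authors' p-values and log2 fold changes were left aside, since their rows do not match the genes (Spearman rho 0.017 with the CPM ratio of the same row).

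Each mean of 2 libraries is a sum of 2 whole read numbers times the CPM of 1 read, which allowed whole reads per library to be worked out from the authors' deposited CPM. In each group 100% of 14382 values came out whole, to 0.6 of the last of 10 printed digits, and 1 pair of read numbers was possible for 99.7% (ethanol) and 99.95% (4-OHT) of genes. Of 43 and 7 genes with several pairs, 42 and 7, Ncl among them, had a single pair that put both libraries within 1.5-fold, and this pair was taken. 1 gene, Hsp90ab1, was left out and 14381 were tested. Recovered reads were 6367415 and 6300572 (ethanol A and B) and 6967194 and 6152707 (4-OHT A and B), and 3 reads corresponded to 0.426 to 0.477 CPM. The columns carry no replicate numbers, so A and B are only names.

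The main test was limma-trend 3.58.1 (R 4.3.3) on log2(CPM + 1), which understates changes of low genes, two-sided, unfiltered, with p-values adjusted over the 14381 genes by Benjamini-Hochberg and called under 0.05. Alternatives on recovered reads were edgeR 4.0.16 (quasi-likelihood) and DESeq2 1.42.0, and others were a pseudocount of 0.1, a minimum mean of 1 CPM, DESeq2 size factors and leaving out each library, in edgeR only after seeing the data. The 40 members, the lists and the markers were chosen with earlier results of these data known. Genes are named as members, as Arid1a, Myc and Mycn, or as up to 4 called genes of a list in each direction, and others where a count of 5 or fewer holds them. Ccnd3 and Srr, which overlap members, and called markers were named after their values were seen.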

Additional observations from a re-analysis of the deposited data

How the results depend on the processing

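With all 4 libraries, all 40 members kept their direction in limma with a pseudocount of 0.1, DESeq2 size factors or a minimum mean of 1 CPM, in edgeR and in DESeq2. The number of members that rose was 0 in limma, 2 with a minimum mean of 1 CPM and 2 in edgeR, in both cases Polr1a and Polr1b. Without 1 library, 15 members changed direction in at least 1 fit, and the log2 differences of the 40 lay between -0.11 and 0.27. The log2 differences of these 15 members and of Mycn without 1 library ran from -0.028 to 0.11 for Ncl, -0.086 to 0.052 for Fbl, -0.0077 to 0.090 for Nop56, -0.016 to 0.12 for Nop14, -0.028 to 0.048 for Nop16, -0.016 to 0.081 for Nhp2, -0.023 to 0.067 for Gar1, -0.0050 to 0.15 for Rrp1b, -0.039 to 0.042 for Pes1, -0.011 to 0.20 for Rrn3, -0.047 to 0.075 for Taf1d, -0.0094 to 0.12 for Nolc1, -0.062 to 0.072 for Mybbp1a, -0.054 to 0.11 for Ddx21, -0.056 to 0.025 for Ltv1 and -0.017 to 0.088 for Mycn. The median of the 40 members was 0.02 without library A of 4-OHT, with 25 members above 0, and 0.07 without library B of 4-OHT, with 31 above 0. Calls of members by limma in these fits say little, since it called no gene of the whole table without either 4-OHT library. The edgeR fits without 1 library were chosen after seeing the data. The lone library of a group was assumed to vary like the other group.

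Over the whole table, 753 genes rose in limma and 380 in DESeq2, and 606 fell in limma, 981 with the minimum mean, 988 in edgeR and 315 in DESeq2. With a library left out, limma called 0 to 625 rises and 0 to 458 falls, and edgeR 668 to 942 rises and 581 to 825 falls. Without either 4-OHT library limma called 0 genes, with 2506 or 2515 at an unadjusted p under 0.05. Among the lists, edgeR called 1 other small subunit factor higher (0 in limma), 4 other 60S factors (2), 5 genes of the MYC family with Myc itself (3), 2 other MYC targets lower (1) and 1 small nucleolar RNA host lower (0). The members with a promoter motif numbered 2 before the start, 8 with CACGTG or CACGCG there, 8 with CACGTG in the whole entry and 18 with either in the whole entry. DESeq2 did not call Mycl, Hk2, Sox2 and Thy1, which limma and edgeR called. No paired analysis was possible because the deposited columns carry no replicate numbers.

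With 2 libraries a group, an exact permutation test cannot go below p = 0.333, so no test of single genes other than the fits over all genes was made. The standard errors of the members, 0.052 to 0.085 log2, set the size of a difference that could be seen. RNA was selected by its polyA tail, so ribosomal RNA itself was not measured, and no spike-in value was used here.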
